A study of Homo sapiens with 6 samples.

Results

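The 10 genes described here, PTPRC, LAPTM5, SRGN, LYZ, EPB41L3, KYNU, GMFG, LCP1, CORO1A and CD53, are genes of white blood cells or genes measured beside them. They were chosen by their measured signal in replicate arrays of parental K562 cells, with parental 1 set against parental 2 and 3. The platform annotation gave them 25 of the 54675 probe sets on the array, a probe set being a group of oligonucleotides that reads the transcripts of a gene. K562 is an established human erythroleukaemic cell line, derived from blast crisis of chronic myeloid leukaemia. The resistant cells were K562 cells selected in stepwise concentrations of methotrexate (MTX), a folate antagonist, and growing in 10 µM MTX, in medium free of glycine, hypoxanthine and thymidine with dialysed serum (3 arrays). They were set against the sensitive parental line in Ham's F12 medium without MTX (3 arrays), so that resistance and medium cannot be told apart. Nothing in the labels states that replicates were separate cultures, and p-values then measure only the spread between these arrays, which may be technical. In bulk RNA of this kind, a lower share of cells expressing a gene and less RNA per cell cannot be told apart.

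Leukocytes share a set of proteins that other tissues largely lack. PTPRC encodes CD45, the receptor tyrosine phosphatase on nearly all nucleated blood cells, which acts on kinases of the Src family, and CD53 is a tetraspanin, a membrane protein that organizes its neighbours into domains. LAPTM5 resides in lysosomes, SRGN (serglycin) is the proteoglycan that packs the contents of secretory granules, and LYZ (lysozyme) is an enzyme of phagocytes that cleaves bacterial cell walls. LCP1 (L-plastin) bundles actin filaments, CORO1A (coronin 1A) binds them, and GMFG, a relative of cofilin, takes apart branched actin networks. EPB41L3 encodes protein 4.1B, an adaptor between membrane proteins and the cytoskeleton, and KYNU encodes kynureninase of the tryptophan degradation pathway, and neither of these genes is restricted to leukocytes.

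Signals are given as multiples of the median signal of the array, which was 12.3, 12.5 and 10.2 intensity units in resistant arrays 1 to 3, against 14.3, 13.1 and 12.7 in parental arrays 1 to 3. Values below 1 array median cannot be separated from background, which makes the size of any fold against them uncertain. Across the 26692 probe sets tested, Spearman's correlation was 0.899 between parental 1 and 2, 0.889 between parental 1 and 3 and 0.969 between parental 2 and 3. Among resistant arrays it lay between 0.941 and 0.968. Parental 2 and 3 had 0.8825 to 0.9004 with the resistant arrays, and the correlations of parental 1 with parental 2 and 3 lay within that range. Parental 1 had 0.8565 to 0.8702 with the resistant arrays. Probe sets are not independent replicates. The ratio of 3′ to 5′ signal of the ACTB control was 1.19, 1.30 and 2.01 in resistant arrays 1 to 3, against 1.501, 1.25 and 1.32 in parental arrays 1 to 3. By ACTB, resistant 3 had the highest ratio and parental 1 the next. The GAPDH ratio was 0.986, 0.996 and 1.28 in resistant arrays 1 to 3, against 1.03, 1.08 and 1.02 in parental arrays 1 to 3. By GAPDH, resistant 3 was again highest, and parental 1 lay between the other parental arrays.

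Most of the 10 genes varied between the parental arrays they were selected on. A test was possible for 20 of the 25 probe sets, those averaging at least 1 array median over the 6 arrays, and each gene kept at least 1. The 5 left out were 2 of PTPRC and 1 each of SRGN, KYNU and CD53. KYNU probe sets 210663_s_at and 217388_s_at passed only through parental 1. Of the 20, parental 1 was at least 2-fold higher than the mean log2 level of parental 2 and 3 in 13 and at least 2-fold lower in 5, against 10.2% and 9.92% of all tested probe sets. This contrast chose the genes, and no test is given on it. The genes LCP1 and LYZ were not variable on this measure by their main probe set, since parental 1 differed from parental 2 and 3 by 0.23 and -0.53 on the log2 scale. Each gene is represented below by its brightest tested probe set on the log2 scale.

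Promoter sequence is shown for 5 of the genes: PTPRC, LAPTM5, EPB41L3 and CD53, which were high in parental 1, and GMFG, the gene called between resistant and parental arrays. For EPB41L3 and CD53, which have several starts, the window shown is the one that holds the motif GAGGAA, which their other windows lack. Each line holds the 250 bases before the transcription start in RefSeq (GRCh38.p14), 5′ to 3′ on the strand of the gene. The stretches are chr1:198638790-198639039 (plus strand) for PTPRC, chr1:30757775-30758024 (minus strand) for LAPTM5, chr18:5543998-5544247 (minus strand) for the second of 4 starts of EPB41L3, chr1:110872898-110873147 (plus strand) for the second of 2 starts of CD53, and chr19:39336044-39336293 (minus strand) for GMFG. Capitals mark the motif GAGGAA, the motif TGTGGT, the motif AGATAA and the motif TATAAA on either strand.
PTPRC: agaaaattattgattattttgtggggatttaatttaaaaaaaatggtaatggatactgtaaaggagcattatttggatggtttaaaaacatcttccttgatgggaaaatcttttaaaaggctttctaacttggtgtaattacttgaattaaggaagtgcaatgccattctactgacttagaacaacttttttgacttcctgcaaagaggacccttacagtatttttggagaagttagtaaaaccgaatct
LAPTM5: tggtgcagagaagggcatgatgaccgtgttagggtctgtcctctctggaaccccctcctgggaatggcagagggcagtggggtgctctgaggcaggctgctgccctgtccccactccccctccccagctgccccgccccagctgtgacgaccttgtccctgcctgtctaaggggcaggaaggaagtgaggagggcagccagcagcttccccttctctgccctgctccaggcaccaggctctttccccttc
EPB41L3: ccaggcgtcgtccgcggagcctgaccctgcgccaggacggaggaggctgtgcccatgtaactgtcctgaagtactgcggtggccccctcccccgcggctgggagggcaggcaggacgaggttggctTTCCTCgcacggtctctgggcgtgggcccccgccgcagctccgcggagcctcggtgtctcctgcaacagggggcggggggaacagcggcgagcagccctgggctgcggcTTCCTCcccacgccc
CD53: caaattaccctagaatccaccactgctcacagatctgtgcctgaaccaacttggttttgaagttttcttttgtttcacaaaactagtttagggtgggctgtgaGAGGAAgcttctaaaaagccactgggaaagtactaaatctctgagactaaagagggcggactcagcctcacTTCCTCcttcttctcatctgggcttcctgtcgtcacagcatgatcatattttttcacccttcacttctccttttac
GMFG: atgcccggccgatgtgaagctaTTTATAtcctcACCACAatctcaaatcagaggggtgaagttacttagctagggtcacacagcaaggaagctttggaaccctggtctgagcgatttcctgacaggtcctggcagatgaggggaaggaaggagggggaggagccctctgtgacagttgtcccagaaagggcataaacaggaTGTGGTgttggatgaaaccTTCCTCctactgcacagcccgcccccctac

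These letters were searched for because GAGGAA is a core recognized by PU.1, TGTGGT by RUNX factors and AGATAA by GATA factors, families that act in blood cells, while TATAAA is the TATA box. None of the 4 motifs overlaps another in the windows printed. GAGGAA was present in the windows of 6 of the 8 genes with an entry, namely EPB41L3, KYNU, GMFG, LCP1, CORO1A and CD53, in 6 of their 12 windows. Among all 35116 windows of this length it was present in 23.6%. In CD53 it began 147 bases before the start on the strand of the gene and 76 bases before it on the other strand, and in GMFG 30 bases before the start on the other strand. TGTGGT was in 2 of the 12 windows (GMFG and LCP1, 10.98% of all windows), AGATAA in 1 (EPB41L3, 9.17%) and TATAAA in 3 (KYNU, GMFG and LCP1, 10.7%). The windows of PTPRC and LAPTM5 held none of these letters. The promoters also differed in base composition, with a GC content of 31.2% for PTPRC, 64.8% for LAPTM5, 38.8% to 73.2% over the 4 windows of EPB41L3 (73.2% in the one printed) and 45.2% and 44.0% for the windows of CD53, against a median of 58.0% over all windows. A match of letters is a description of the sequence and not a binding site. SRGN and LYZ are named only.

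PTPRC and CD53, the surface proteins, were both highest in parental 1. PTPRC had 6.50, 7.62 and 9.60 array medians in resistant arrays 1 to 3, against 60.2 in parental 1 and 0.374 and 0.402 in parental 2 and 3. Parental 1 was 155-fold above the geometric mean of parental 2 and 3, both in the range of background, and all 3 resistant arrays lay between these levels. The other tested probe sets of PTPRC showed the same order. With 207238_s_at the levels were 7.62, 4.75 and 2.62 in resistant arrays 1 to 3, against 54.9 in parental 1 and 0.0916 and 0.0945 in parental 2 and 3. Probe set 212587_s_at gave 4.82, 3.65 and 2.25 in resistant arrays 1 to 3, against 27.6, 0.42 and 0.244 in parental arrays 1 to 3. Thus 3 probe sets placed PTPRC above the array median in every resistant array and below it in parental 2 and 3. The remaining 1552480_s_at and 1569830_at stayed under 1 array median in all 6 arrays, with a highest level of 0.814.

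CD53 was measured well above the array median everywhere. It had 47.1, 48.0 and 22.4 array medians in resistant arrays 1 to 3, against 109.9 in parental 1 and 21.2 and 22.9 in parental 2 and 3. Resistant 1 and 2 were between parental 1 and the other parental arrays, whereas resistant 3 was at the level of parental 2 and 3. Parental 1 was 4.99-fold above parental 2 and 3. Probe set 242946_at had 1.76, 1.87 and 0.716 array medians in resistant arrays 1 to 3, against 6.80 in parental 1 and 1.37 and 0.709 in parental 2 and 3, with the same arrays high. The last one, 237606_at, stayed under 1 array median on every array.

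**Figure D1:**
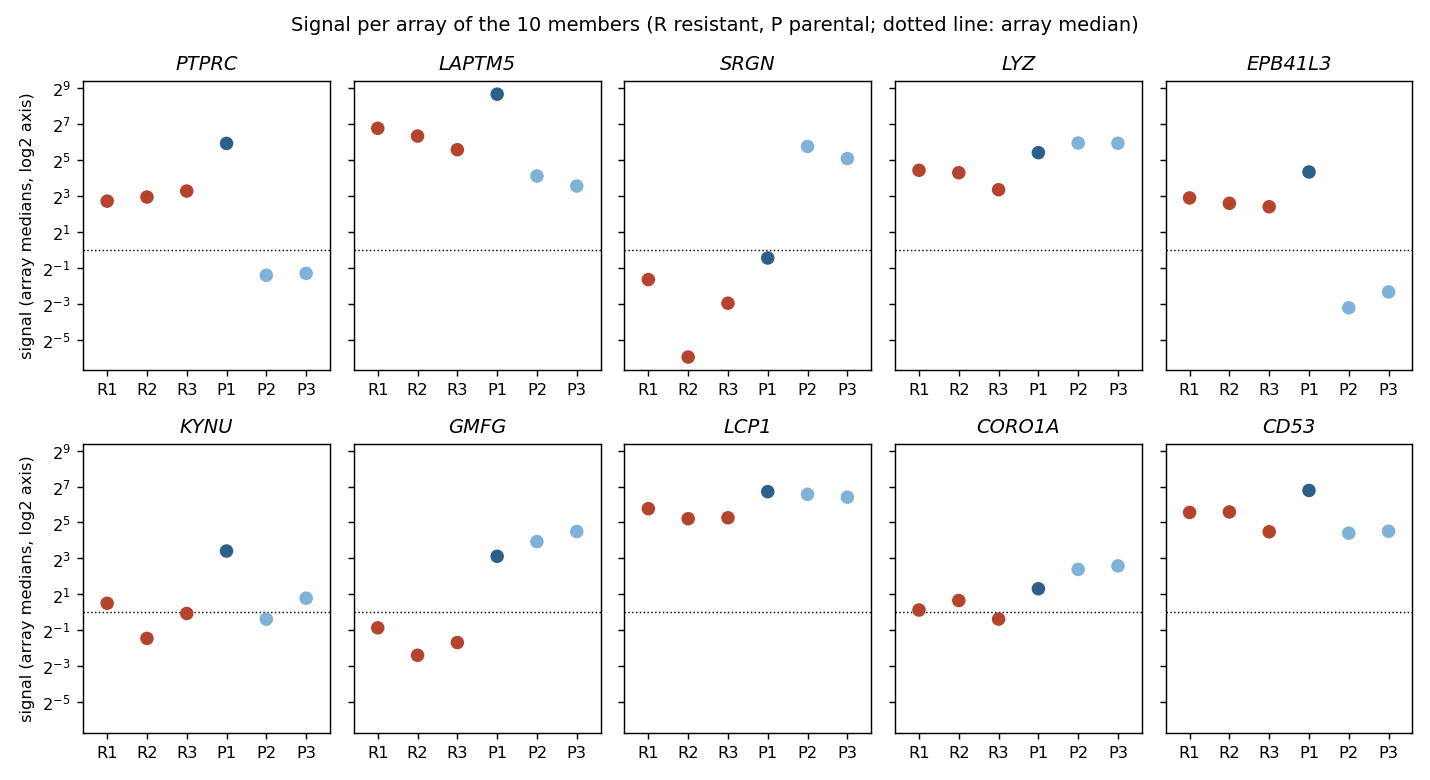
Signal of the representative probe set of each of the 10 genes, in array medians (log2 axis), with 1 point per array (R1 to R3 resistant, P1 to P3 parental) and the array median as a dotted line. PTPRC, EPB41L3 and LAPTM5 place the resistant arrays between parental 1 and parental 2 and 3, SRGN is high in parental 2 and 3 only, and GMFG lies under 1 array median in the resistant arrays only.

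Of the lysosome and granule genes, LAPTM5 followed PTPRC and SRGN ran the other way. LAPTM5 had 108, 79.9 and 47.2 array medians in resistant arrays 1 to 3, against 401 in parental 1 and 17.2 and 11.6 in parental 2 and 3. Parental 1 was 28.4-fold above parental 2 and 3, and no array was in the background range. Its probe set 201720_s_at gave 62.1, 45.9 and 17.3 in resistant arrays 1 to 3, against 237, 6.16 and 5.94 in parental arrays 1 to 3. Both probe sets placed every resistant array between parental 1 and the other parental arrays.

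SRGN was above the array median in parental 2 and 3 only. Its levels were 0.317, 0.016 and 0.127 array medians in resistant arrays 1 to 3, against 0.727 in parental 1 and 53.5 and 33.6 in parental 2 and 3. With 201858_s_at they were 0.0488, 0.048 and 0.0882 in resistant arrays 1 to 3, against 0.042 in parental 1 and 27.2 and 20.8 in parental 2 and 3. Parental 1 and the 3 resistant arrays were therefore all in the background range by both probe sets, and cannot be ranked among themselves. Probe set 1554676_at was dim throughout, with a highest level of 1.05 in resistant 2.

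LYZ was expressed on all arrays. It had 21.4, 19.4 and 10.1 array medians in resistant arrays 1 to 3, against 42.1, 60.9 and 60.5 in parental arrays 1 to 3. The groups did not overlap, and parental 1 was the lowest parental array. Probe set 1555745_a_at gave the same order of groups, with 8.94, 5.66 and 1.57 in resistant arrays 1 to 3, against 12.5, 29.0 and 22.8 in parental arrays 1 to 3.

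EPB41L3 was the gene of the set most like PTPRC. It had 7.37, 5.98 and 5.25 array medians in resistant arrays 1 to 3, against 20.0 in parental 1 and 0.107 and 0.197 in parental 2 and 3. With 206710_s_at it had 10.6, 6.89 and 8.26 in resistant arrays 1 to 3, against 31.9 in parental 1 and 0.0611 and 0.063 in parental 2 and 3. The third probe set, 212681_at, had 4.32, 3.94 and 3.78 in resistant arrays 1 to 3, against 17.4, 0.0305 and 0.0157 in parental arrays 1 to 3. All 3 probe sets were above the array median in parental 1 and in the resistant arrays and in the background range in parental 2 and 3.

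Among the actin genes, GMFG separated the groups most widely. It had 0.553, 0.192 and 0.314 array medians in resistant arrays 1 to 3, against 8.69, 15.3 and 22.6 in parental arrays 1 to 3. Every resistant array was in the background range and every parental array clearly above it, although parental 1 was 2.14-fold below parental 2 and 3. CORO1A had 1.10, 1.58 and 0.775 array medians in resistant arrays 1 to 3, against 2.49, 5.25 and 6.01 in parental arrays 1 to 3. Parental 1 was again the lowest parental array, and the groups did not overlap. LCP1 had 54.5, 37.0 and 38.4 array medians in resistant arrays 1 to 3, against 105, 94.9 and 84.9 in parental arrays 1 to 3. Its parental arrays were close together and did not overlap the resistant ones.

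KYNU was raised in parental 1 alone. It had 1.42, 0.368 and 0.961 array medians in resistant arrays 1 to 3, against 10.7 in parental 1 and 0.771 and 1.73 in parental 2 and 3. By 217388_s_at the levels were 1.61, 1.27 and 0.098 in resistant arrays 1 to 3, against 26.9, 0.282 and 0.0157 in parental arrays 1 to 3. Probe set 210663_s_at gave 1.02, 0.576 and 0.235 in resistant arrays 1 to 3, against 20.99, 1.24 and 0.134 in parental arrays 1 to 3. On none of the 3 did a resistant array come above 2 array medians. The untested 210662_at had its highest level, 1.38, in parental 1 as well.

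**Figure D2:**
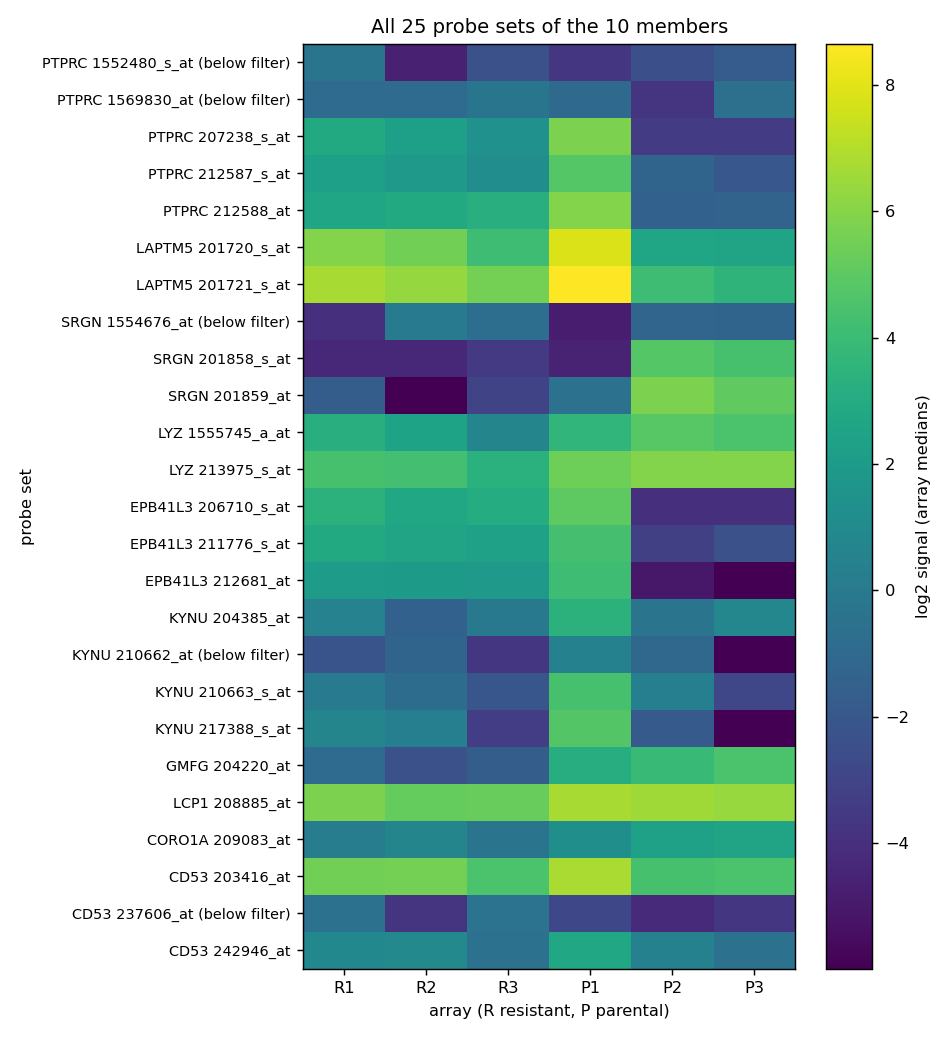
Log2 signal in array medians of all 25 probe sets of the 10 genes (rows) on the 6 arrays (columns; R resistant, P parental), from dark (low) to bright (high), with the 5 untested probe sets marked. Among the 20 tested probe sets, those of PTPRC, LAPTM5 and EPB41L3 are brightest in P1 and dimmest in P2 and P3, and those of SRGN are bright in P2 and P3, an order that the untested probe sets of PTPRC and SRGN do not show.

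Of the 13 tested probe sets that were at least 2-fold higher in parental 1, 8 had all 3 resistant arrays between parental 1 and both other parental arrays, namely those of PTPRC, LAPTM5 and EPB41L3. Among all tested probe sets at least 2-fold higher in parental 1, 578 of 2730 (21.2%) were placed so. Probe sets of a gene are not independent, and the wide gap between parental arrays, for which the genes were chosen, leaves room for such values. The others of the 13, from KYNU and CD53, had at least 1 resistant array outside that range.

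The median over the 20 tested probe sets of the SD of log2 level across the 3 resistant arrays was 0.62, against 0.32 for all tested probe sets. Values in the background range can widen this SD, which was 2.21 for the representative of SRGN and 0.28 for that of PTPRC. Resistant 1 was the highest resistant array in 15 of 20 (75%) and resistant 3 the lowest in 13 of 20 (65.0%), where all tested probe sets gave 52.9% and 43.3%. These counts include probe sets with resistant values in the background range, among them those of GMFG and SRGN, where the arrays cannot be ranked. PTPRC shows that the order was not shared by every probe set of a gene: its representative was highest in resistant 3, while 207238_s_at was lowest there. The ACTB and GAPDH ratios given above were also highest in resistant 3, and the part of RNA quality in these orders was not tested.

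The comparison of resistant with parental cells asks which of these genes differed beyond the spread between arrays. It called GMFG alone. Its level averaged 0.353 ± 0.184 array medians in resistant arrays and 15.5 ± 6.96 in parental arrays (SD, n = 3 each), a log2 difference of -5.49 (SE 0.50, limma adjusted p = 0.00499). A call required an adjusted p under 0.05 after Benjamini-Hochberg adjustment over all tested probe sets and a change of at least 2-fold. Of the 20 tested probe sets 0 were called higher and 1 lower by limma, against 1.2% and 1.14% of all 26692 tested. At an unadjusted p under 0.05, 0 were higher and 6 lower, against 9.71% and 8.98% of all. A wide spread between parental arrays lowers the chance of a call, and these genes were chosen for it. GMFG stayed called when any single array was left out, with adjusted p between 0.00497 and 0.0285. The methods' t-test with Benjamini-Hochberg adjustment did not call it (adjusted p = 0.0672) and called 0 of the 20.

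LYZ, LCP1 and CORO1A were lower in all resistant arrays than in any parental array, and limma left them short of the threshold. The log2 differences were -1.74 for LYZ (SE 0.35, adjusted p = 0.0659), -1.15 for LCP1 (SE 0.24, adjusted p = 0.0726) and -1.96 for CORO1A (SE 0.43, adjusted p = 0.0793). These 3 genes passed the threshold under several alternatives, among them limma with a pseudocount of 1 array median, where the adjusted p was 0.016 for LYZ, 0.0244 for LCP1 and 0.0369 for CORO1A. Under others they lay further from it. With limma and no level filter the adjusted p was 0.219 for LYZ, 0.275 for LCP1 and 0.240 for CORO1A. SRGN had a log2 difference of -6.98 with an SE of 1.83 (adjusted p = 0.116). Resistant and parental values were fully apart for 6 of the 20 probe sets (30.0%), namely both of LYZ and 1 each of SRGN, GMFG, LCP1 and CORO1A, against 27.2% of all tested probe sets. That share is close to the background. SRGN counts among the 6 only through values of parental 1 and the resistant arrays that were all in the background range.

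For PTPRC, LAPTM5, EPB41L3 and CD53 the parental arrays lay so far apart that the resistant arrays fell within their range. KYNU had resistant 1 and 3 within the range of its parental arrays and resistant 2 below it (0.368, in the background range). The log2 differences were 1.91 for PTPRC (SE 1.90, adjusted p = 0.631), 3.03 for EPB41L3 (SE 1.87, adjusted p = 0.431) and 0.78 for LAPTM5 (SE 1.30, adjusted p = 0.787). KYNU gave -1.61 (SE 1.00, adjusted p = 0.436). CD53 gave -0.02 (SE 0.69, adjusted p = 0.991), with resistant 1 and 2 above and resistant 3 level with parental 2 and 3. The signs for LAPTM5 and CD53 turned when single arrays were left out, to -0.16 for LAPTM5 without parental 3 and to 0.34 for CD53 without resistant 3.

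Leaving out parental 1 changed the calls of several genes. The genes were chosen on parental 1 against parental 2 and 3, so the levels left in parental 2 and 3 are selected values too. Leaving out parental 1 also narrows the parental spread by construction. The values below therefore describe the distance from parental 2 and 3 and support no call. PTPRC was then higher in resistant cells by 4.33 on the log2 scale (SE 0.25, limma adjusted p = 0.00234), EPB41L3 by 5.40 (SE 0.34, adjusted p = 0.00264) and LAPTM5 by 2.39 (SE 0.41, adjusted p = 0.0398). For PTPRC and EPB41L3 the parental level was in the background range, and the size of these differences is uncertain. In the other direction SRGN had -8.94 (SE 1.22, adjusted p = 0.0213), with the resistant level in the background range, and CORO1A -2.35 (SE 0.35, adjusted p = 0.0266). Of 18 probe sets tested without parental 1, 7 were called higher and 4 lower, against 2.38% and 1.68% of the 26597 tested in that fit. The selection favours such calls, so these counts are no result about the genes. The 7 were all 3 of PTPRC, all 3 of EPB41L3 and 1 of LAPTM5, and the 4 were both of SRGN and those of GMFG and CORO1A. CD53 had 0.75 (SE 0.39, adjusted p = 0.332), LYZ -1.91 (adjusted p = 0.0552), LCP1 -1.07 (adjusted p = 0.0912) and KYNU -0.54 (adjusted p = 0.679), none past the threshold.

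**Figure D3:**
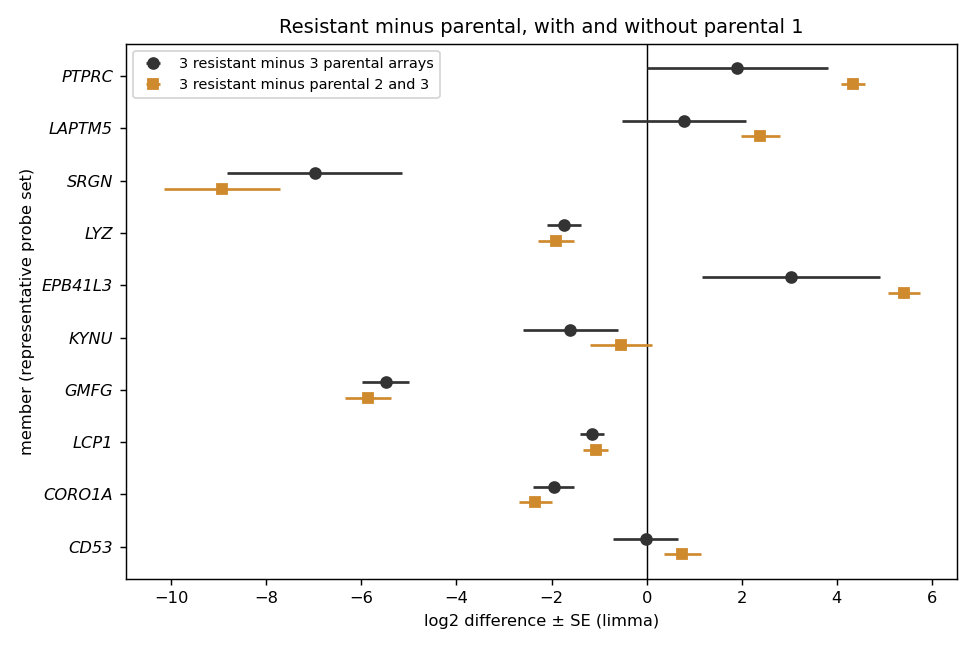
Log2 difference of resistant minus parental arrays from limma for the representative probe set of each gene, with bars of 1 standard error, from all 6 arrays (circles) and without parental 1 (squares). The bars of PTPRC, EPB41L3 and LAPTM5 shrink and the values move up without parental 1 (PTPRC 1.91 and 4.33), while GMFG stays low in both fits (-5.49 and -5.85).

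The 3 genes whose pattern over the 6 arrays was most like each member were found by the mean absolute difference of log2 levels centred on each gene's own mean. For PTPRC these were KIT, the receptor of stem cell factor (0.53), EPB41L3 (0.56) and EFCAB12 (0.68), where the median over all genes was 2.24. KIT had 1.95, 1.15 and 1.00 array medians in resistant arrays 1 to 3, against 9.22 in parental 1 and 0.115 and 0.0945 in parental 2 and 3. KIT passed the level filter only through parental 1. The resistant arrays of KIT lay between parental 1 and the other parental arrays, as with PTPRC. At 1.00 to 1.95 array medians they were near the background range, so this order is uncertain. For EPB41L3 they were GSTP1, a glutathione S-transferase (0.54), PTPRC (0.56) and the glutamate receptor subunit GRIA1 (0.65, median 2.57). GSTP1 had 64.8, 48.1 and 27.1 array medians in resistant arrays 1 to 3, against 80.0 in parental 1 and 1.80 and 2.02 in parental 2 and 3.

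LAPTM5 was nearest to APBB2, an adaptor that binds the amyloid precursor protein (0.31), to CLEC2B, a lectin-like receptor (0.41), and to EFCAB12 (0.42, median 1.43). CLEC2B had 19.0, 20.9 and 24.8 array medians in resistant arrays 1 to 3, against 106 in parental 1 and 6.31 and 4.01 in parental 2 and 3, again with the resistant arrays in between. CD53 was nearest to EGF, the epidermal growth factor (0.10), LRRC23 (0.10) and ERVK13-1 (0.22, median 0.77). EGF had 3.30, 4.64 and 1.75 array medians in resistant arrays 1 to 3, against 8.79 in parental 1 and 1.76 and 1.86 in parental 2 and 3. In EGF as in CD53, resistant 3 was close to parental 2 and 3.

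Nearest to SRGN were KCNE3, a regulatory subunit of potassium channels (1.43), RASGRP1, an activator of Ras (1.44), and CLIP4 (1.54, median 3.67). These distances are widened by SRGN values in the background range, which cannot be ranked. KCNE3 had 0.959, 0.056 and 0.49 array medians in resistant arrays 1 to 3, against 2.08 in parental 1 and 19.3 and 11.7 in parental 2 and 3. It shared with SRGN the high values in parental 2 and 3. KYNU was nearest to CYTH4 (0.46), MPZL3 (0.48) and PTGES3L (0.52, median 1.16). CYTH4 and PTGES3L passed the level filter only through parental 1.

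The genes that were lower in all resistant arrays were matched by genes with the same order of groups. For LCP1 these were ZNF672 (0.05), NAPA, a factor that disassembles membrane fusion complexes (0.07), and the copper transporter ATP7B (0.08, median 0.63). For LYZ they were TXNIP, a binding partner of thioredoxin (0.16), ZNF280A (0.16) and the myosin light chain MYL4 (0.17, median 0.91). TXNIP had 59.1, 53.7 and 38.8 array medians in resistant arrays 1 to 3, against 148, 215 and 199 in parental arrays 1 to 3. For CORO1A they were the GTPase RAB8B (0.21), FILIP1L (0.23) and TSLP (0.27, median 1.04), and for GMFG they were ZNF667-AS1 (0.40), the actin capping regulator CARMIL1 (0.46) and the class III myosin MYO3B (0.49, median 2.75). Between members, the smallest distances were those of LYZ and CORO1A (0.28), LYZ and LCP1 (0.42) and PTPRC and EPB41L3 (0.56).

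The members lie on 8 chromosomes, and their tested neighbours along the chromosome were measured beside them. Among 40 neighbours, 2 on each side of each gene, parental 1 was at least 2-fold higher in 1 and at least 2-fold lower in 6, where all genes gave 10.5% and 7.36%. C1orf53 beside PTPRC was the higher one, with 2.27, 0.936 and 2.02 array medians in resistant arrays 1 to 3, against 2.10 in parental 1 and 0.435 and 0.701 in parental 2 and 3. NEK7, the nearest tested gene on that side, differed little between parental arrays, with 49.9 in parental 1 and 33.0 in both others. Beside LAPTM5, SDC3 was lower in parental 1, and beside EPB41L3 both ARHGAP28 and RAB12 were. The remaining lower neighbours were LRFN1 beside GMFG and GDPD3 and SMG1P5 beside CORO1A. The comparison of resistant with parental arrays called 1 neighbour, CPM beside LYZ, a carboxypeptidase, at a log2 difference of 1.46.

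Other genes expressed across leukocytes went both ways in parental 1. Of 34 genes on a list of pan-leukocyte genes, 20 were tested by their representative probe set. In parental 1, 6 of them were at least 2-fold higher and 3 at least 2-fold lower (all genes 10.5% and 7.36%), with a median log2 difference of 0.31 against 0.10 over all genes. The largest differences from parental 2 and 3 were those of EVI2B, a leukocyte membrane protein (4.44), FERMT3, the integrin activator kindlin 3 (4.17), and the surface glycoprotein CD52 (3.29). EVI2B had 3.13 array medians in parental 1 and 0.656 and 0.0315 in parental 2 and 3, in the background range, so the size of its difference is uncertain. FERMT3 passed the level filter only through parental 1, and of the 18 genes that pass it without parental 1, 5 were at least 2-fold higher there. CD52 had 1.71, 1.70 and 0.863 array medians in resistant arrays 1 to 3, against 114 in parental 1 and 12.3 and 10.9 in parental 2 and 3. It differed from PTPRC in that the resistant arrays lay below parental 2 and 3. Between resistant and parental arrays, 0 of the 20 were called higher and 1 lower (all genes 1.30% and 1.47%). The gene called was IL2RG, the common gamma chain of interleukin receptors. IL2RG had 0.724, 0.976 and 1.27 array medians in resistant arrays 1 to 3, against 28.2, 33.2 and 33.3 in parental arrays 1 to 3 (log2 difference -5.03, SE 0.27, limma adjusted p = 0.00131). The median log2 difference of the 20 was -1.37, against 0.02 over all 11810 genes.

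Relatives of the members by family or pathway were measured beside them. Over all 11810 genes, 1.30% were called higher and 1.47% lower. Of 16 tested tetraspanins, relatives of CD53, 0 were called higher and 1 lower, TSPAN33 (log2 difference -4.00, limma adjusted p = 0.00647). Its resistant arrays were in the background range (0.463, 0.176 and 0.206), so the size of this difference is uncertain. In parental 1, 2 were at least 2-fold higher and 2 lower, with the largest differences in TSPAN5 (-2.46), TSPAN6 (2.42) and CD9 (2.30). Of 20 tested actin regulators related to LCP1, CORO1A and GMFG, 0 were called higher and 1 lower. That gene was COTL1, coactosin-like protein, another relative of cofilin, with 5.05, 3.51 and 2.34 array medians in resistant arrays 1 to 3, against 28.4, 45.7 and 32.0 in parental arrays 1 to 3 (log2 difference -3.32, SE 0.35, limma adjusted p = 0.00809). CORO2A, a coronin, had 3.41, 3.90 and 1.68 in resistant arrays 1 to 3, against 0.455 in parental 1 and 6.20 and 6.08 in parental 2 and 3, and was not called. Among 7 tested genes of the protein 4.1 family and partners, EPB41L4A was called higher (log2 difference 2.13; adjusted p = 0.0338) and 0 lower. EPB41L2 was lower in parental 1 than in parental 2 and 3 by 1.42 on the log2 scale, opposite to EPB41L3. Of 5 tested genes of the kynurenine pathway and 9 of granules and lysosomes, 0 were called in either direction and 0 were at least 2-fold higher in parental 1.

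By its sum, no marker list of a defined blood cell placed the 3 resistant arrays between parental 1 and both other parental arrays, the order seen for PTPRC. Few of these markers reached the level needed for a test: 1 of 13 for T cells, 2 of 8 for B cells and 3 of 9 for NK cells. For monocytes it was 3 of 11, for neutrophils 2 of 13 and for mast cells 2 of 6. Sums made mostly of values near background, or of 1 gene, cannot decide whether a cell type shares that order. Summed over 13 T cell markers, the level was 5.17, 9.21 and 5.76 array medians in resistant arrays 1 to 3, against 53.9, 38.1 and 40.5 in parental arrays 1 to 3. CD3D was the 1 gene of them that was tested, with 0.919, 2.14 and 0.0784 in resistant arrays 1 to 3, against 50.3, 31.9 and 35.2 in parental arrays 1 to 3 (adjusted p = 0.0514), and 6 of the 13 stayed under 1 on every array. For 8 measured B cell markers the sums ran from 4.42 to 6.68 in resistant arrays, against 4.57 to 7.13 in parental arrays. For 11 monocyte and macrophage markers they ran from 14.1 to 16.2 in resistant arrays, against 12.7 to 18.7 in parental arrays, and for 13 neutrophil and granulocyte markers from 6.59 to 8.76, against 8.61 to 12.6. Parental 1 did not stand above both other parental arrays on the lists for B cells, NK cells, neutrophils, or mast cells and basophils. On the monocyte list parental 1 had 18.7, next to 18.1 in parental 2. For 9 NK cell markers the sums ran from 8.12 to 11.6 in resistant arrays, against 6.67 to 11.5 in parental arrays. For 6 mast cell and basophil markers they ran from 22.3 to 34.9, against 24.5 to 30.6 in parental arrays. GATA2 made up most of the mast cell sum on every array. It had 30.3, 19.5 and 26.3 in resistant arrays 1 to 3, against 18.5, 22.5 and 28.3 in parental arrays 1 to 3. KIT, on the same list, had the order of PTPRC, with resistant arrays near the background range. Megakaryocyte markers (7 measured) summed to 14.1, 11.9 and 10.2 in resistant arrays 1 to 3, against 24.8, 47.4 and 28.2 in parental arrays 1 to 3. Of the 2 B cell, 2 neutrophil, 2 mast cell and 4 megakaryocyte markers tested, 0 were called.

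Within the monocyte list, 2 of the 3 tested genes were called, in opposite directions. VCAN (versican), a matrix proteoglycan, was called higher (log2 difference 3.53, limma adjusted p = 0.00194). AIF1, an actin-binding protein of macrophages, was called lower (log2 difference -4.35, limma adjusted p = 0.0128). VCAN had 0.748, 0.740 and 1.00 array medians in parental arrays 1 to 3, and AIF1 had 1.00, 0.608 and 0.265 in resistant arrays 1 to 3. These levels are in or at the edge of the background range, so the size of both differences is uncertain. On the mast cell list 2 genes were tested, and KIT is given above. Of 3 tested NK cell markers, NCR1 and KLRF1 differed by -1.81 and 1.24 between parental 1 and parental 2 and 3, and 0 were called.

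The line's own markers were present on all arrays. Summed over 11 measured erythroid and K562 markers, the level was 1712, 1440 and 1567 array medians in resistant arrays 1 to 3, against 2022, 1964 and 1872 in parental arrays 1 to 3. HBE1, the embryonic epsilon globin, was the 1 gene called on that list, lower in resistant cells (log2 difference -3.35; adjusted p = 0.00562). KLF1, the erythroid transcription factor, was lower in parental 1 than in parental 2 and 3 by 1.52 on the log2 scale. CDKN2A, CDKN2B and MTAP, at 9p21, a region that K562 cells lack, summed to 2.47, 2.03 and 3.13 array medians in resistant arrays 1 to 3, against 1.86, 2.22 and 0.654 in parental arrays 1 to 3. None of the 3 reached the level needed for a test. Single values still passed 1 array median, with 2.02 in resistant 1 for CDKN2A and 1.25 in resistant 3 for MTAP. Values of this size therefore occurred for genes of a region that the line lacks.

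Epithelial markers moved with PTPRC and LAPTM5 in parental 1. Their sum over 16 measured genes was 325, 264 and 236 array medians in resistant arrays 1 to 3, against 699 in parental 1 and 357 and 284 in parental 2 and 3. Of 11 tested, 7 were at least 2-fold higher in parental 1 than in parental 2 and 3 and 1 lower, with a median log2 difference of 1.23 against 0.10 over all genes. EPCAM, CDH1 and CLDN7 passed the level filter only through parental 1, and of the 8 genes that pass it without parental 1, 4 were at least 2-fold higher there. CDH1 (E-cadherin) had 0.0894, 0.152 and 0.373 array medians in resistant arrays 1 to 3, against 21.8 in parental 1 and 2.01 and 0.717 in parental 2 and 3. TFF1, a secreted trefoil peptide, had 0.951, 0.192 and 0.49 in resistant arrays 1 to 3, against 44.4, 9.76 and 2.26 in parental arrays 1 to 3. These differ from PTPRC and EPB41L3 in that the resistant arrays were in the background range. EPCAM, an epithelial adhesion molecule, differed by 3.98 on the log2 scale between parental 1 and parental 2 and 3. Of 6 tested mesenchymal and bone markers 0 were called, and RUNX2 had 2.33, 1.30 and 1.76 array medians in resistant arrays 1 to 3, against 8.497 in parental 1 and 0.771 and 0.315 in parental 2 and 3. The part of cells or RNA of another type in the levels of the 10 genes was not tested.

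**Figure D4:**
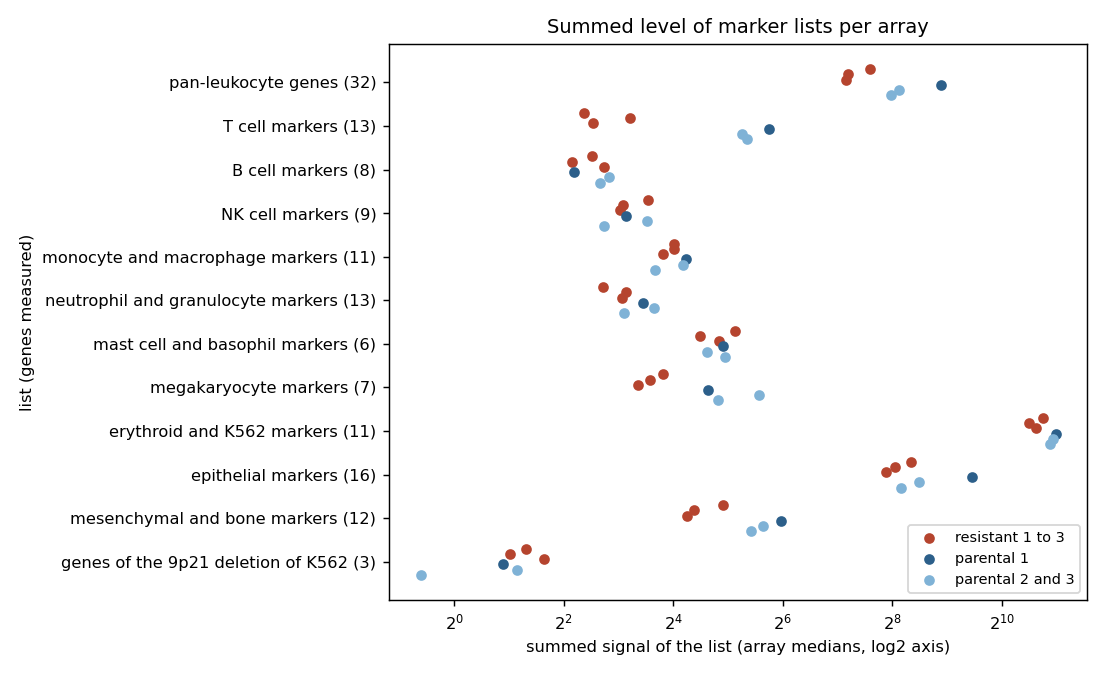
Summed signal of marker lists per array, in array medians on a log2 axis, with resistant arrays 1 to 3 in red, parental 1 in dark blue and parental 2 and 3 in light blue, and the number of genes measured in brackets. Parental 1 lies above all other arrays for the pan-leukocyte (473), T cell (53.9), monocyte (18.7), erythroid (2022), epithelial (699) and mesenchymal (62.1) lists, and the lists of B cells, NK cells and neutrophils stay between 4.42 and 12.6 array medians on all arrays.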

How the data were processed

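RNA of MTX-resistant (n = 3) and parental (n = 3) K562 cells was hybridized to Affymetrix HG-U133 Plus 2.0 arrays. The authors deposited linear MAS5 intensities (version of MAS5 not given in the sources used here), with 1 value for each probe set. Intensities were divided by their array median, set to at least 0.01 and converted to log2. Precision is limited by the number of arrays. The 62 control probe sets and those averaging under 1 array median were not tested. Probe sets were named by the platform annotation (41097 name 1 gene).

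Groups were compared with limma 3.58.1 (R 4.3.3, lmFit and eBayes, two-sided). The fit was tested on simulated data. Alternatives were other scalings, pseudocounts, filters and fits, leaving out single arrays or probe sets with shared sequence (identifiers ending in _s_at or _x_at), and a block on replicate number.

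The members and lists were chosen with earlier results of these data known. The text names every member, the 3 genes most like each, and in each list up to 4 called genes and up to 3 with the largest difference of parental 1 from parental 2 and 3. The chromosomal neighbours named, apart from NEK7, were singled out after their values were seen.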

Additional observations from a re-analysis of the deposited data

How the results depend on the processing

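GMFG, the 1 probe set called among the 20 tested, was called lower under each alternative except the t-test named in the study's methods. Run on the log2 values and level filter used here, that t-test with Benjamini-Hochberg adjustment called 0 of them (GMFG adjusted p = 0.0672). More were called, all lower, with quantile normalization (2), scaling by the 75th percentile (3), pseudocounts of 0.25 and 1 array medians (2 and 4), a level filter at 2 array medians (4), and an intensity trend with a robust prior (4). The added ones were from LYZ, LCP1 and CORO1A. Leaving out 1 array gave 1 to 11 calls, the 11 without parental 1, a count that the choice of genes favours. Over all tested probe sets the 622 calls became 174 without a level filter, 1191 with a pseudocount of 1, 1133 with the trend, 126 with the methods' t-test, 1080 without parental 1, and 204 to 322 without any other array. With a replicate block 1 probe set was called, and 269 over all tested. The correlations of same-numbered deviations were -0.007, -0.025 and -0.006, so same-numbered arrays did not deviate together. This cannot show whether they were prepared together, which the labels do not state. The 18 probe sets at least 2-fold apart between parental 1 and parental 2 and 3 became 9 of 10 once probe sets with shared sequence were left out. With single arrays left out, the log2 difference of LAPTM5 (0.78, not called) ran from -0.16 without parental 3 to 2.39 without parental 1, and that of CD53 (-0.02, not called) from -0.44 without parental 2 to 0.75 without parental 1, with 0.34 without resistant 3. The differences of the other members kept their sign under every alternative. Resistant 3 had the lowest median signal (10.2), and levels under 1 array median cannot be ranked.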
